A study of Mus musculus with 48 samples.

Results

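The comparison described here set the injected (ipsilateral) dentate gyrus against the uninjected (contralateral) dentate gyrus of the same mouse, 7 days after kainate. Its members are the 8 libraries that GEO's labels give as kainate, day 7, from mice 21, 23, 26 and 35, which are 8 of the 48 libraries and 4 of the 24 mice of the series. The ipsilateral side is the epileptogenic zone (EZ) and the contralateral side the peri-ictal zone (PIZ), and the sides were paired by mouse number. Of 55357 genes in the count table, 21390 were expressed highly enough to be tested.

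The series is bulk RNA-seq of microdissected dorsal dentate gyri, hilus included, of wild-type C57BL/6J mice taken 3, 7 or 14 days after a unilateral injection of kainate or of saline into the hippocampus. Each of its 12 groups (injection, day and side) holds 4 mice, 2 male and 2 female, and the sex of single mice is not given in the labels. Their age is 6 to 8 weeks in the series record and 8 to 10 weeks in the methods of the study. Animals were not pooled, and saline mice carried the same needle track without kainate.

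Kainate is an agonist of the kainate and AMPA classes of glutamate receptor. Injected into the hippocampus, it starts a status epilepticus, kills vulnerable neurons near the needle, and after a seizure-poor interval leaves a focal epilepsy that starts from the injected side. The dentate gyrus holds densely packed granule cells that send mossy fibers to CA3, and its hilus holds mossy cells and inhibitory interneurons, both known to be sensitive to excitotoxic injury. Microglia and astrocytes answer such injury by dividing, changing shape and switching on complement, cytokine, cytoskeletal and matrix genes.

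The 8 libraries held 19842312 to 24817764 counts (median 22107015), within the range of 17762656 to 25712975 over all 48. Levels are given in CPM, counts scaled to a common library size, always in the order of mice 21, 23, 26 and 35. A difference between sides is a log2 fold change of EZ over PIZ with its standard error (SE), and a gene was called a differentially expressed gene (DEG) at an adjusted p under 0.01 in edgeR's quasi-likelihood test and a fold change over 1.5. That fit held all 48 libraries, so its spread came from 24 mice. The side difference of DEG varied more among the mice described here, with a median SD of 0.669 on the log2 scale, than in the other groups of mice (0.221 to 0.549), so the spread behind each SE and p was pooled with groups that varied less. With 4 pairs, the smallest 2-sided p of an exact sign-flip test is 1 in 8.

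The 4 mice did not respond to the same extent. The median absolute difference between sides over the 21390 genes was 0.723 on the log2 scale in mouse 21 and 0.608 in mouse 35, against 0.28 in mouse 23 and 0.281 in mouse 26. In the 4 saline mice of day 7 it lay between 0.132 and 0.149. Genes more than 2-fold higher in EZ numbered 4527 in mouse 21, 3733 in mouse 35, 2074 in mouse 26 and 1678 in mouse 23, and genes more than 2-fold lower numbered 3589, 3055, 806 and 889. The labels give no batch that separates mice 21 and 35 from mice 23 and 26. The same mice were separated by sex-linked genes. Xist, the RNA that silences an X chromosome in females, was at 878 to 1199 CPM in the 4 libraries of mice 23 and 26 and at most 0.317 CPM in those of mice 21 and 35, while the Y-linked helicase gene Ddx3y was at 41.7 to 52.8 CPM in mice 21 and 35 and at most 0.0418 CPM in mice 23 and 26. At days 3 and 14 the kainate mouse with the largest side difference, mouse 38 and mouse 27, had the Xist pattern of mice 23 and 26. The part of sex in the differences between mice was not tested, and with 2 mice of each pattern it cannot be told apart from other differences between these animals.

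**Figure D1:**
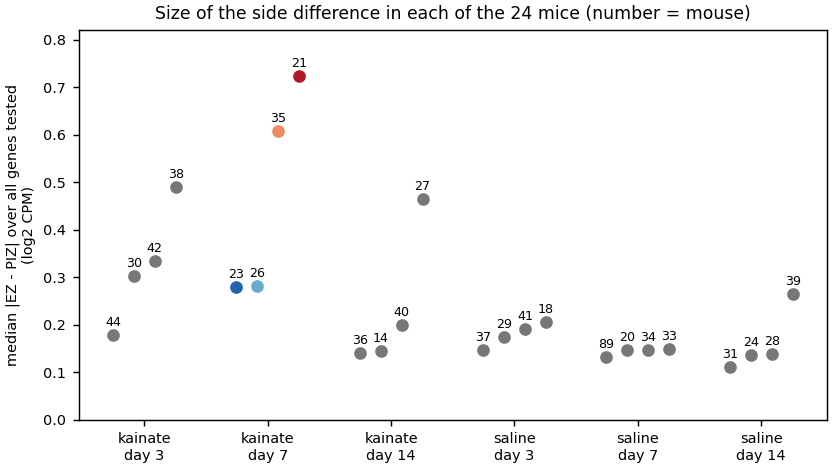
Median absolute EZ minus PIZ difference over 21390 genes (log2 CPM, y axis) in each of the 24 mice, grouped on the x axis by injection and day; each point is 1 mouse and its number is beside it. Mice 21 and 35 sit at 0.723 and 0.608, above mice 23 and 26 at 0.28 and 0.281 and above the 4 saline mice of day 7 at 0.132 to 0.149.

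The spread between mice was larger on the injected side. Over all genes tested, the median SD of log2 CPM between mice was 0.34 in EZ and 0.224 in PIZ. Over the DEG, which were chosen for their difference between sides, it was 0.577 in EZ and 0.28 in PIZ, against 0.187 and 0.202 in the saline mice of day 7. On the uninjected side, the library of mouse 21 stood apart, with 235 genes more than 2-fold above and 309 more than 2-fold below the median of the other three, where the others had 42 to 86 above and 32 to 140 below. In it Prox1, the transcription factor that defines granule cells, was at 102 CPM, against 210 to 236 CPM in the other PIZ libraries.

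Between sides, 3751 genes were DEG higher in EZ (17.5% of those tested) and 2402 were DEG lower in EZ (11.2%). Of these 6153, 5787 (94.1%) differed in the same direction in all 4 mice and 4671 (75.9%) had EZ and PIZ levels that did not overlap. Over all genes tested, EZ lay above PIZ in all 4 mice for 6042 genes (28.2%) and below it for 5452 (25.5%), and the sides did not overlap for 4063 genes with EZ higher (19.0%) and 2929 with EZ lower (13.7%). The higher genes had the larger changes, with a median log2 fold change of 1.39 against -1.03 for the lower genes. A change of more than 4-fold was met by 1151 higher and 277 lower DEG, and one of more than 16-fold by 127 and 6. In the saline mice of day 7, edgeR called 0 genes between sides (0%), although 479 had an unadjusted p under 0.05, and DESeq2 and limma-voom called 2 and 1.

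**Figure D2:**
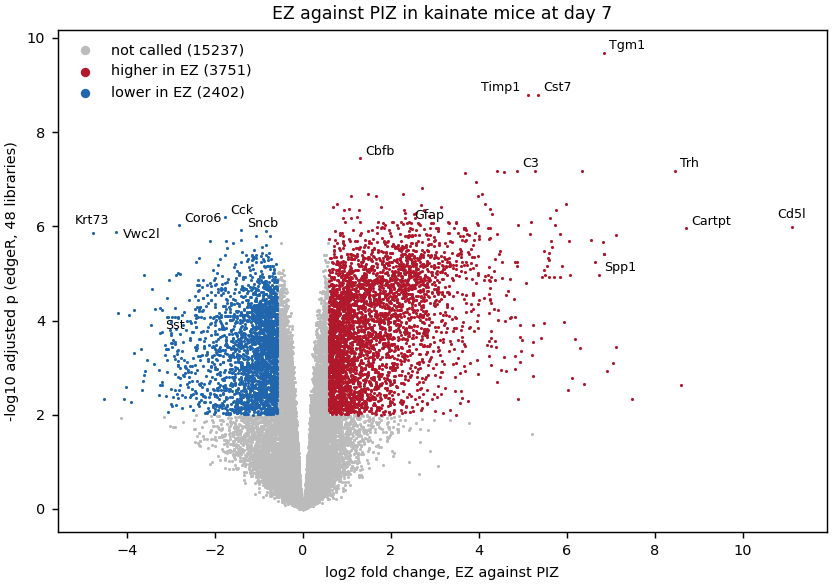
Log2 fold change of EZ over PIZ at day 7 (x axis) against -log10 of the adjusted p of edgeR's quasi-likelihood test (y axis), each point 1 of 21390 genes; red marks the 3751 DEG higher in EZ, blue the 2402 lower, grey the rest. The upper right holds Tgm1, Timp1 and Cst7, and the higher genes reach larger fold changes than the lower.

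The number of calls depended on which mice carried it. Without mouse 21 it was 3658, without mouse 35 it was 4158, and without mouse 23 or 26 it rose to 7216 or 6862. Of the 6153 genes, 3333 (54.2%) were called whichever mouse was left out. A fit of the 8 libraries alone, with 3 residual degrees of freedom, called 26 genes, while 3250 of the 6153 (52.8%) had an adjusted p under 0.05 in it with a fold change over 1.5. The 26 were Ch25h, Sulf1, Cacna1s, Tgm1, C3, Trh, Fos, Plscr2, Serpinf2, Npas4, Ccn5, Cd44, S1pr3, Dennd2c, Timp1, Dusp2, Gm56487, Cartpt, Gdnf, Has2, Acan, Ptger4 and Lrig1, higher in EZ, and Coro6, Kcnt1 and Ociad2, lower in EZ.

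The smallest adjusted p of all genes belonged to Tgm1 (ENSMUSG00000022218, GRCm39 chromosome 14, 55937466 to 55951383), which encodes transglutaminase 1, an enzyme that cross-links proteins. Its level in EZ was 83, 23.6, 45.7 and 59.9 CPM, and in PIZ 0.317, 0.14, 0.627 and 0.72 CPM. Each injected side was thus far above each uninjected side, and the log2 fold change was 6.84 (SE 0.37, edgeR adjusted p = 2.09e-10). Cst7, which encodes the protease inhibitor cystatin F of activated microglia, was at 156, 56.7, 86.6 and 116 CPM in EZ and 1.22, 1.5, 3.3 and 4.22 CPM in PIZ (log2 fold change 5.34, SE 0.33, adjusted p = 1.60e-09). Timp1, a secreted inhibitor of matrix metalloproteinases, was at 34.8, 10.2, 15.6 and 40.3 CPM in EZ and 0.543 to 0.724 CPM in PIZ (5.12, SE 0.32, adjusted p = 1.60e-09). The next 5 by p were Cbfb, Ch25h, Hcar2, C3 and Serpinf2, with log2 fold changes of 1.30, 6.35, 5.27, 4.87 and 4.4. Cbfb, the partner of the RUNX transcription factors, had the smallest change of these and the most even one, at 55.6, 56.5, 51.2 and 67.7 CPM in EZ and 20.6, 23.3, 24.9 and 24.4 CPM in PIZ.

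Among the genes lower in EZ, the smallest adjusted p belonged to Cck, which encodes the neuropeptide cholecystokinin, at 41.4, 37.9, 29.6 and 18 CPM in EZ and 108, 113, 91.1 and 104 CPM in PIZ (log2 fold change -1.77, SE 0.17, adjusted p = 6.40e-07). It was lower in every mouse, with differences of -1.39, -1.57, -1.62 and -2.53, the largest in mouse 35. Coro6, a coronin that binds actin, was at 1.96, 1.17, 2.22 and 0.996 CPM in EZ and 12.3, 6.59, 18.3 and 8.4 CPM in PIZ (-2.82, SE 0.29). The other 6 by p were Sncb (-1.40), which encodes the presynaptic protein beta-synuclein, Plekha6 (-0.85), Vwc2l (-4.25), Krt73 (-4.78), the mitochondrial carrier gene Slc25a29 (-1.06) and Rab4a (-0.74), which encodes a small GTPase of endosome recycling. None of the 8 overlapped between sides, and Rab4a, the least changed, differed by -0.74, -0.70, -0.66 and -0.84 in the 4 mice.

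Ranked by size of change among genes with at least 1 CPM in EZ or PIZ, the higher genes with the largest fitted change were Cd5l, Cartpt, Mcoln3, Trh and Mmp27. Cd5l, which encodes a secreted protein of macrophages, had 9616 counts over the 4 EZ libraries and 3 counts over the 4 PIZ libraries, a ratio of 2981 with an exact interval of 1020 to 14458 that covers counting error only. Its EZ level was uneven, at 214, 3.26, 14.2 and 154 CPM. Mcoln3, a lysosomal cation channel gene, and Mmp27, a matrix metalloproteinase gene, had no count in any PIZ library and were at least 16.8-fold and 7.75-fold higher in EZ against a floor of 3 counts per library, so their places in that order are not measured. Almost all counts of both came from mice 21 and 35, with 4.66 and 4.11 CPM of Mcoln3 against 0.153 and 0.234 CPM in mice 23 and 26, and Mmp27 was no longer called without mouse 21 or mouse 35. The lower genes with the largest fitted change were Krt73, Dio3, Vwc2l, Chrm5 and Gpr101, all of low level. Dio3, Vwc2l and Chrm5 had at most 3 counts in each EZ library, so their fitted folds and places in that order are not measured. Dio3, which encodes a thyroid-hormone inactivating deiodinase, overlapped between sides and rested on 7.83 CPM in the PIZ of mouse 21, against 0.0418 to 0.288 CPM in the other PIZ libraries. Its call was lost without mouse 21 or 35, as was that of the muscarinic receptor gene Chrm5, and that of the orphan receptor gene Gpr101 was lost without mouse 21.

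Microglial genes were higher in EZ as a group. Of 11 genes of homeostatic microglia, 11 were DEG higher in EZ and 0 lower, with a median log2 fold change of 2.12 against 0.00 over all genes tested, and their EZ and PIZ levels did not overlap. P2ry12, the purinergic receptor by which microglia sense released nucleotides, was at 165, 86.8, 91.7 and 143 CPM in EZ and 37, 41.2, 58.7 and 48.6 CPM in PIZ (1.36, SE 0.20, adjusted p = 1.77e-05). Csf1r, the receptor on which microglia depend for survival, changed by 1.99 and Tmem119 by 2.22. The rise was larger in mice 21 and 35, with median differences of 3.37 and 2.39 against 1.37 and 1.28 in mice 23 and 26. In bulk RNA, more cells of a type and more RNA per cell cannot be told apart, and neither can fewer cells and less RNA per cell.

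Of 15 genes of disease-associated microglia, the state that microglia enter around dying cells and debris, 14 were higher in EZ and 0 lower (median 3.09). Spp1, which encodes osteopontin, was at 763, 34.7, 151 and 615 CPM in EZ and 1.64 to 3.98 CPM in PIZ (log2 fold change 6.73, SE 0.94, adjusted p = 1.07e-05). Ctsd, the lysosomal protease cathepsin D, reached 13015, 2910, 4038 and 10990 CPM in EZ, from 372 to 670 CPM in PIZ (3.58, SE 0.44). Gpnmb, a transmembrane glycoprotein of phagocytes, was at 817, 104, 130 and 677 CPM in EZ and 6.61 to 23.1 CPM in PIZ (4.27, SE 0.69). Apoe, the lipid carrier of glia, was at 10360, 2146, 2621 and 7965 CPM in EZ and 979 to 1266 CPM in PIZ (2.01, SE 0.33). Each of these was higher in all 4 mice, and EZ of mice 21 and 35 held several times the level of mice 23 and 26. Lpl, a lipase gene, was the member that was not called, with differences of 1.18, -0.85, 0.13 and 1.77.

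All 11 complement genes were higher in EZ (median 3.04), again without overlap. C1qa, a chain of the initiating C1q complex, was at 1662, 373, 565 and 1216 CPM in EZ and 52.6, 101, 123 and 122 CPM in PIZ (3.05, SE 0.42, adjusted p = 1.01e-05), and C1qb changed by 2.87. C3, the central component that all complement routes cleave, was at 95.2, 47.2, 62.5 and 85.3 CPM in EZ and 2.21 to 2.72 CPM in PIZ (4.87, SE 0.39, adjusted p = 6.54e-08). C3 was among the 26 genes called from the 8 libraries alone. It was also above PIZ on the injected side of each saline mouse, by 2.74, 2.90, 3.03 and 1.6 (2.99 in the fit, SE 0.68, not called), and the difference from saline was not called (1.88, adjusted p = 0.153). The receptors for the cleaved fragments, C3ar1 and C5ar1, changed by 3.72 and 3.87, and the inhibitor Serping1 by 2.23.

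In the interferon response, mouse 35 had the smallest median difference. All 14 genes tested were higher in EZ (median 2.80), 13 of them without overlap, and the median difference was 4.13 in mouse 21, 3.20 in mouse 26, 2.49 in mouse 23 and 1.29 in mouse 35. Interferons act through a receptor that activates a transcription factor complex, which binds the interferon-stimulated response element before the target gene. The core of that element, read as GAAANNGAAA on either strand, was looked for in the 250 bases before the start of transcription in the RefSeq promoter table (GRCm39). It was present for 936 of 27025 symbols (3.46%) and for 5 of the 9 genes of the list with an entry, Ifit1, Ifit3, Isg15, Rsad2 and Bst2. The 60 bases around it are shown for these 5 because their levels are given next, in the direction of transcription and with the matched bases, which overlap where they run on, in capitals:
Ifit1, chr19:34618179-34618238, plus strand: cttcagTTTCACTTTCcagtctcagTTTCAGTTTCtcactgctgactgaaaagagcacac
Ifit3, chr19:34560782-34560841, plus strand: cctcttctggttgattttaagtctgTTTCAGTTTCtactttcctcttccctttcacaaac
Isg15, chr4:156285307-156285366, minus strand: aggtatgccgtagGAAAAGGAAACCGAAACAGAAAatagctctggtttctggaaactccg
Rsad2, chr12:26506537-26506596, minus strand: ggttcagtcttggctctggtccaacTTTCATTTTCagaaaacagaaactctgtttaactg
Bst2, chr8:71990206-71990265, minus strand: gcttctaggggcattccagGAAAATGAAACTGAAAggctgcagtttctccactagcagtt

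Isg15, a ubiquitin-like protein that is attached to other proteins under interferon, has 3 overlapping matches. Its level was 39.8, 22.7, 57 and 23.2 CPM in EZ and 1.67, 3.46, 4.76 and 12.2 CPM in PIZ (log2 fold change 2.90, SE 0.38, adjusted p = 6.86e-06), so that the uninjected side of mouse 35 was the highest of the PIZ libraries and its injected side near the lowest. Ifit1, which binds viral RNA, was at 57.4, 30.1, 84.1 and 30.9 CPM in EZ and 4.44, 5.28, 9.15 and 15.9 CPM in PIZ (2.59, SE 0.33). Ifit3, its partner, was at 181, 109, 230 and 84.2 CPM in EZ and 14.3, 21.6, 27.4 and 48.5 CPM in PIZ (2.48, SE 0.32). In both, mouse 26 had the highest injected side and mouse 35 the highest uninjected side. Bst2, the membrane protein tetherin, was at 139, 66.7, 107 and 78.7 CPM in EZ and 5.16 to 16.5 CPM in PIZ (3.13, SE 0.29), and Rsad2, which encodes viperin, at 43.6, 14.6, 48 and 26.7 CPM in EZ and 1.82 to 5.42 CPM in PIZ (3.24, SE 0.38). Irf7, which amplifies the response, changed by 3.33. Other members, Ifi27l2a, Usp18, Mx1 and Rtp4 among them, had no promoter entry.

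Antigen presentation genes were higher in EZ, 13 of 13 (median 2.58), of which 10 were higher in all 4 mice. B2m, the light chain of class I molecules, was at 1386, 635, 756 and 829 CPM in EZ and 97.1, 181, 225 and 196 CPM in PIZ (2.34, SE 0.27, adjusted p = 2.47e-06). The class I heavy chain genes H2-D1 and H2-K1, close paralogs among which shared reads may be divided, changed by 2.52 and 2.64. The exceptions in direction were class II genes in mouse 23, whose PIZ library held 32.7 CPM of the invariant chain gene Cd74 and 9.35 CPM of H2-Aa, against 1.99 to 5.1 and 0.77 to 1.3 CPM in the other PIZ libraries. H2-Aa was thus at 42.2, 8.21, 11.6 and 27.5 CPM in EZ with a log2 fold change of 3.37 (SE 0.68).

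Of 16 cytokine and chemokine genes, 15 were tested, Il6 being too low, and 12 were higher in EZ and 0 lower (median 2.73). Ccl2, the chemokine that attracts monocytes, was at 11, 3.16, 9.94 and 7.01 CPM in EZ and 0.0453, 0.14, 0.251 and 0.624 CPM in PIZ (4.87, SE 0.62, adjusted p = 5.85e-06). Il1b, an early inflammatory cytokine, was at 2.08, 1.33, 1.87 and 2.24 CPM in EZ and 0.14 to 0.585 CPM in PIZ (2.73, SE 0.48). Tnf was at 3.57, 0.765, 1.6 and 2.07 CPM in EZ and at most 3 counts in any PIZ library. The 2 members of highest level, the neuronal chemokine gene Cx3cl1 and the niche chemokine gene Cxcl12, were not called (-0.21 and -0.13). In the saline mice the median of the same list was 1.39, and 1 member was called in the difference from saline.

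Genes of infiltrating leukocytes were sparse. Of 14, 8 passed the filter, and the T and B cell genes Cd3e, Cd3d, Cd8a and Ms4a1, among others, and the cytotoxic cell gene Nkg7 did not. Of the 8, 5 were higher in EZ and 0 lower (median 1.83). Ptprc, which encodes CD45 and is expressed by microglia as well as by blood leukocytes, was at 108, 28.5, 50.8 and 90.8 CPM in EZ and 8.37 to 17.3 CPM in PIZ (2.35, SE 0.31). Ccr2, the receptor for Ccl2 on monocytes, was at 5.41, 1.68, 3.82 and 6.31 CPM in EZ and 0.407 to 0.864 CPM in PIZ (2.87, SE 0.33, adjusted p = 2.40e-06). The neutrophil genes S100a8 and S100a9 stayed at or below 0.622 CPM in every library. None of 5 hemoglobin and erythroid genes was called (median 0.10), with summed levels of 162, 91.7, 88.2 and 180 CPM in EZ and 92.2 to 145 CPM in PIZ.

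**Figure D3:**
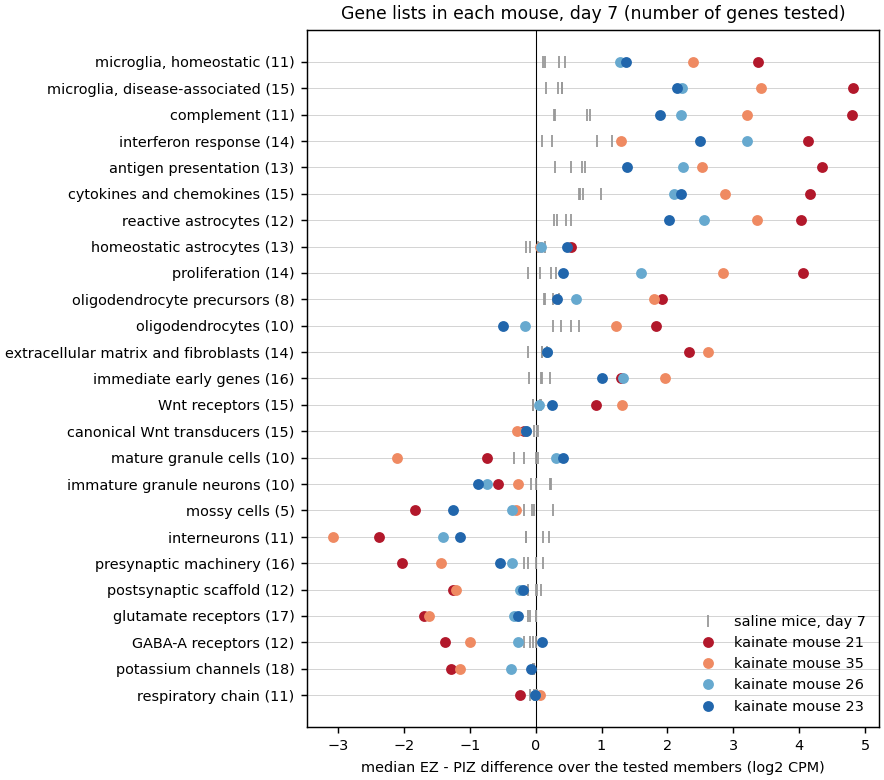
Median EZ minus PIZ difference (log2 CPM, x axis) over the tested members of each of 25 gene lists (y axis, number of genes tested in brackets); coloured points are the 4 kainate mice of day 7, grey ticks the 4 saline mice. Microglial, complement and reactive astrocyte lists lie right of the saline ticks in all 4 mice, with mouse 21 farthest right, while oligodendrocyte and mature granule cell lists lie on opposite sides of 0 in different mice.

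Astrocytes differed between lists. All 12 reactive astrocyte genes were higher in EZ (median 3.3), without overlap between sides. Gfap, the intermediate filament that marks reactive astrocytes, was at 6783, 5545, 4851 and 6580 CPM in EZ and 591, 1565, 1151 and 1370 CPM in PIZ (2.41, SE 0.24, adjusted p = 8.22e-07), and the 4 injected sides were within a narrow range of each other. Vim, another filament gene that microglia and endothelium also express, ran with the size of the response instead, at 1247, 304, 501 and 1259 CPM in EZ and 40.8 to 90.3 CPM in PIZ (3.32, SE 0.42). Cd44, the hyaluronan receptor, was at 134, 65.2, 100 and 171 CPM in EZ and 7.11 to 8.44 CPM in PIZ (3.85, SE 0.48), and Serpina3n, a secreted protease inhibitor, changed by 3.06. PIZ itself was above saline for Gfap, where saline libraries ranged from 311 to 366 CPM on the uninjected side.

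Of 13 genes of homeostatic astrocytes, 5 were higher and 0 lower (median 0.26). Aldh1l1, a folate enzyme that marks astrocytes, was at 149, 91, 104 and 126 CPM in EZ and 37.1 to 45.1 CPM in PIZ (1.47, SE 0.13, adjusted p = 2.03e-07). Aqp4, the water channel of astrocyte endfeet, was at 734, 880, 748 and 808 CPM in EZ and 188, 228, 275 and 293 CPM in PIZ (1.70, SE 0.17). The differences were 1.85, 1.01, 1.23 and 1.77 for Aldh1l1, larger in mice 21 and 35, and 1.96, 1.95, 1.44 and 1.46 for Aqp4. Kcnj10, the potassium channel that buffers extracellular potassium, the phagocytic receptor gene Mertk and the glutamate transporter gene Slc1a3 changed by 1.27, 1.16 and 0.66, and the call of Slc1a3 was lost without mouse 21. The other glutamate transporter gene, Slc1a2, and glutamine synthetase, Glul, were not called, at 2701, 4597, 3902 and 2415 CPM of Slc1a2 in EZ against 3176 to 4174 CPM in PIZ (-0.15 and -0.05).

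Genes of dividing cells were higher in EZ, 13 of 14 (median 2.33). Mki67, present in cycling cells, was at 69.4, 11.3, 32.6 and 68.4 CPM in EZ and 2.35, 8.37, 8.4 and 8.21 CPM in PIZ (2.53, SE 0.46, adjusted p = 1.30e-04). Top2a, the topoisomerase of DNA replication, was at 61.2, 11.4, 29.8 and 63.7 CPM in EZ and 2.49, 8, 8.82 and 7.39 CPM in PIZ (2.45, SE 0.43). Mouse 23 had hardly any difference, its median over the list being 0.42 against 1.6, 2.84 and 4.06 in mice 26, 35 and 21. The PIZ library of mouse 21 was the lowest for both genes, while the other 3 PIZ libraries lay above the 1.93 to 3.22 CPM of Mki67 on the uninjected side of saline mice. Each of these 13 genes was called whichever mouse was left out.

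Of 14 genes of the p53 response and cell death, 11 were higher and 0 lower (median 1.78), and 7 without mouse 21. Cdkn1a, which encodes the cell-cycle inhibitor p21, was at 52.2, 14.4, 34.9 and 52.4 CPM in EZ and 4.07 to 7.58 CPM in PIZ (2.73, SE 0.36, adjusted p = 6.38e-06). The necroptosis genes Ripk3 and Mlkl changed by 2.68 and 3.08 and the death receptor gene Fas by 2.12. The p53 targets Mdm2, Ccng1 and Bbc3 were not called (0.09, 0.54 and -0.17). Of 10 genes of iron handling and oxidative stress, 6 were higher and 0 lower (median 1.06). Cybb, the catalytic subunit of the phagocyte NADPH oxidase, was at 86.5, 9.28, 27.8 and 55.7 CPM in EZ and 0.588 to 2.01 CPM in PIZ (4.88, SE 0.51), and its partner Cyba changed by 2.63. Of the ferritin chains, Ftl1 was at 1010, 274, 331 and 791 CPM in EZ and 111 to 164 CPM in PIZ (1.84, SE 0.32), while Fth1 was not called (0.49), and both have many near-identical pseudogenes.

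None of the 10 oligodendrocyte genes was called in either direction (median 0.60), and the mice did not share a direction. In the saline mice the median was 0.45, and it was above 0 in each, at 0.54, 0.27, 0.66 and 0.38. The summed level of the list was 10774 and 7144 CPM in EZ of mice 21 and 35, against 3149 and 3094 CPM in their PIZ, and 4167 and 3674 CPM in EZ of mice 23 and 26, against 4957 and 3960 CPM in PIZ. Mbp, the myelin basic protein gene, was at 4764, 1919, 1527 and 2902 CPM in EZ and 1269, 1993, 1556 and 1241 CPM in PIZ (0.76, SE 0.26, adjusted p = 0.0186). Leaving out mouse 23 brought 7 of the 10 past the threshold, and leaving out mouse 26 brought 3. Of 8 oligodendrocyte precursor genes, 7 were higher and 0 lower (median 1.15), and 4 without mouse 35. Gpr17, which marks committed precursors, was at 192, 74.7, 74.7 and 204 CPM in EZ and 40.2 to 50.2 CPM in PIZ (1.43, SE 0.21), and Olig1, a transcription factor of the lineage, at 201, 95.6, 101 and 158 CPM in EZ and 53.3 to 71.4 CPM in PIZ (1.14, SE 0.18). Bmp4, a signal that precursors themselves produce, was at 9.52, 3.62, 2.26 and 6.84 CPM in EZ and 0.669 to 1.36 CPM in PIZ (2.28, SE 0.24). Pdgfra, the growth factor receptor of precursors, was not called (0.59).

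Of 14 endothelial and pericyte genes, 4 were higher and 0 lower (median 0.58), with 2 called without mouse 21 or 35, 8 without mouse 23 and 9 without mouse 26. Mfsd2a, the lipid transporter of the blood-brain barrier, was at 44.9, 54.5, 40.6 and 51.3 CPM in EZ and 14.5, 22.4, 11.7 and 9.31 CPM in PIZ (1.78, SE 0.17, adjusted p = 3.94e-07), with differences of 1.63, 1.28, 1.79 and 2.45. The other called members were Vwf, Kcnj8 and Pdgfrb (1.31, 0.84 and 0.79), while the glucose transporter gene Slc2a1 and the pericyte gene Rgs5 were not called (0.56 and 0.47). Of 14 genes of extracellular matrix and fibroblasts, 5 were higher and 0 lower (median 1.39), but 10 were called without mouse 23 and 9 without mouse 26. The median difference was 2.32 and 2.61 in mice 21 and 35 and 0.18 and 0.17 in mice 23 and 26. Thbs1, a secreted glycoprotein of early wound matrix, was at 50.9, 11.3, 40.7 and 87.1 CPM in EZ and 1.26 to 3.18 CPM in PIZ (4.25, SE 0.68, adjusted p = 3.62e-05), Lox, which cross-links collagen, changed by 3.06 and tenascin C, Tnc, by 2.79. Fn1, fibronectin, was at 318, 74, 166 and 323 CPM in EZ and 49.1 to 74 CPM in PIZ (1.63, SE 0.38), and lost its call without mouse 21 or 35. The fibrillar collagens were not called although large in mice 21 and 35. Col3a1 was at 105, 4.59, 7.53 and 64.3 CPM in EZ and 3.35 to 7.2 CPM in PIZ (2.31, SE 0.76, adjusted p = 0.0132).

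Genes of mature granule cells divided the mice. Of 10, 1 was higher and 3 were lower (median -0.61), beside 17.5% higher and 11.2% lower over all genes tested. The median difference was -0.73 in mouse 21 and -2.11 in mouse 35 against 0.41 in mouse 23 and 0.31 in mouse 26. C1ql2, a synaptic organizer of mossy fiber terminals, was at 10.2, 154, 124 and 8.71 CPM in EZ and 93.1, 173, 198 and 171 CPM in PIZ (-2.0, SE 0.60, adjusted p = 0.00761). Calb1, the calcium buffer calbindin, was at 14.3, 86.8, 113 and 20.5 CPM in EZ and 72.9, 46.2, 57.5 and 71.1 CPM in PIZ, and was not called (-0.53, SE 0.39). In both genes the injected sides of mice 21 and 35 were far below their uninjected sides, and those of mice 23 and 26 were not. For Calb1, every kainate PIZ library was itself below the 96.5 to 166 CPM of the saline libraries of day 7. For C1ql2, none was below the saline range of 90.3 to 171 CPM. Prox1 was at 84, 277, 315 and 184 CPM in EZ and 102, 210, 229 and 236 CPM in PIZ (0.06, SE 0.17, adjusted p = 0.782). Desmoplakin (Dsp) and lactase (Lct) are both known as dentate granule cell markers. They were lowest in the injected sides of mice 21 and 35 and the uninjected side of mouse 21. These 3 libraries held 10.2 to 15.6 CPM and 7.76 to 11.1 CPM, against 40.8 to 145 CPM and 78 to 135 CPM in the other 5. Saline libraries of day 7 held 114 to 156 CPM of Dsp and 113 to 154 CPM of Lct, above every kainate PIZ library. The calls of C1ql2, Plk5 (-2.72) and Stxbp6 (-0.96) were lost without mouse 21 or 35. Trpc6, a cation channel gene, was the higher member (1.04), and its call was lost without mouse 23 or 26.

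Of 10 genes of immature granule neurons, 0 were higher and 4 lower (median -0.44). Dcx, which encodes the microtubule protein doublecortin of migrating newborn neurons, was at 9.05, 20.8, 22 and 18.2 CPM in EZ and 44.2, 41.4, 53.2 and 52.9 CPM in PIZ (-1.51, SE 0.27, adjusted p = 1.08e-04), lower in each mouse. Saline libraries of day 7 held 24 to 35.4 CPM of Dcx on the injected side and 19.8 to 35.4 CPM on the uninjected side. Every kainate PIZ library was above the saline range of its side, and every kainate EZ library below that of its side. Eomes, the transcription factor of intermediate progenitors, was at 0.157, 1.17, 1.56 and 0.0415 CPM in EZ and 1.63, 5.19, 7.98 and 7.2 CPM in PIZ (-3.10, SE 0.54). In 3 of the 4 mice, PIZ was above the 0.941 to 2.48 CPM of Eomes in saline libraries. Tubb3 and Draxin fell by 0.81 and 1.24, while Stmn1, Neurod1, Sox11, Sox4 and Igfbpl1 were not called.

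Mossy cell genes were few and pointed in both directions, 1 higher and 2 lower of 5 (median -1.43). Drd2, a dopamine receptor gene expressed by mossy cells, was at 0.196, 0.357, 0.741 and 0.0415 CPM in EZ and 2.26, 3.23, 2.3 and 2.26 CPM in PIZ (-2.98, SE 0.59, adjusted p = 3.00e-04). Ociad2 was at 30.4, 31.1, 18.8 and 12.6 CPM in EZ and 108, 90.7, 66 and 57 CPM in PIZ (-1.84, SE 0.27). Both were without overlap between sides. Csf2rb2, which belongs to a cytokine receptor family, was the higher member (2.15). Calb2, calretinin, was lower in each mouse without a call, at 4.19, 11, 18.4 and 13.5 CPM in EZ and 89.8, 26.3, 23.7 and 16.6 CPM in PIZ (-1.43, SE 0.71, adjusted p = 0.0929).

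Interneuron genes were lower in EZ, 9 of 11 and 0 higher (median -2.3), and 6 without mouse 21. Sst, which encodes somatostatin and marks hilar interneurons, was at 21.4, 9.33, 12.3 and 0.207 CPM in EZ and 110, 90.5, 76.3 and 36.2 CPM in PIZ (-3.26, SE 0.62, adjusted p = 1.84e-04). Slc32a1, the vesicular transporter that loads GABA, was at 4.15, 9.64, 9.67 and 0.332 CPM in EZ and 45.6, 36.7, 36.9 and 27.4 CPM in PIZ (-2.95, SE 0.58). Pvalb, parvalbumin of fast-spiking basket cells, was at 2.9, 5.41, 2.42 and 2.2 CPM in EZ and 12.1 to 18.8 CPM in PIZ (-2.39, SE 0.38). All 3 were lower in each mouse, mouse 35 having the lowest Sst and Slc32a1. Lhx6, Htr3a, Nos1 and Vip fell by 2.3, 2.70, 3.00 and 1.55. The GABA-synthesizing enzymes showed much smaller differences. Gad1 was at 82.6, 207, 246 and 180 CPM in EZ and 229 to 304 CPM in PIZ (-0.67, SE 0.17), a call lost without mouse 21, and Gad2 was at 55.6, 120, 115 and 117 CPM in EZ and 107 to 147 CPM in PIZ and was not called (-0.45, adjusted p = 0.0857).

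Neuropeptide genes were called in both directions, 5 higher and 4 lower of 14 (median 0.35). Trh, which encodes thyrotropin-releasing hormone, was at 36.5, 61.1, 147 and 118 CPM in EZ and 0.167 to 0.421 CPM in PIZ (log2 fold change 8.45, SE 0.68, adjusted p = 6.54e-08). Penk, the enkephalin precursor, was at 617, 315, 854 and 1646 CPM in EZ and 45.4, 136, 49.7 and 27.7 CPM in PIZ (3.78, SE 0.70). Pdyn, the dynorphin precursor made by granule cells, was at 47.1, 86.7, 142 and 124 CPM in EZ and 7.83, 22.9, 18.1 and 17.1 CPM in PIZ (2.59, SE 0.38). These 3 were raised in all 4 mice and were highest in mouse 26 or 35. Scg2 and Vgf, granin-family precursors, changed by 1.80 and 1.44. The lower members were Cck, Tac1, Crh and Chgb (-1.77, -2.84, -1.53 and -0.76), the call of Chgb being lost without mouse 21, 23 or 35, and that of Crh without mouse 21 or 35. Npy was not called, at 51.7, 154, 70.9 and 62.8 CPM in EZ and 35.8, 170, 69.4 and 39.5 CPM in PIZ (0.27), and 6 of these 8 libraries were above the 29.3 to 42.7 CPM of the saline libraries. Adcyap1 was higher in each mouse without a call (2.16, adjusted p = 0.0232). Outside the list, Cartpt, another neuropeptide precursor gene, was at 358, 156, 217 and 647 CPM in EZ and 0.187 to 1.31 CPM in PIZ (8.71, SE 0.92, adjusted p = 1.09e-06).

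**Figure D4:**
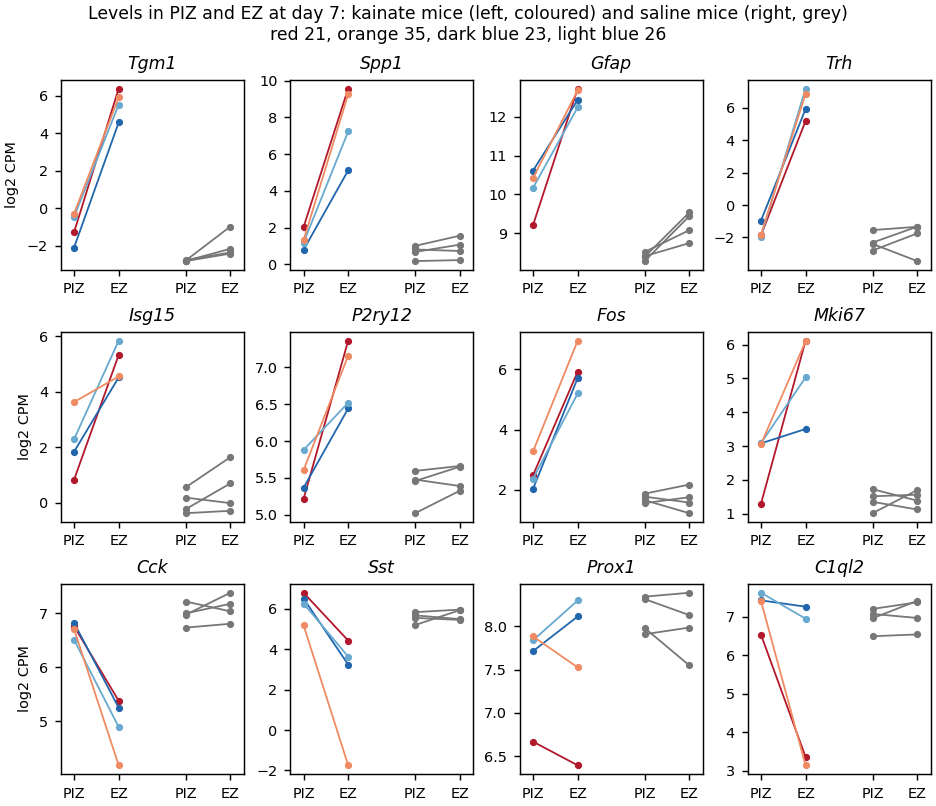
Levels of 12 genes (log2 CPM, y axis, scale differs by panel) in PIZ and EZ (x axis) of the 4 kainate mice of day 7 (coloured lines, 1 per mouse) and the 4 saline mice of day 7 (grey lines). Tgm1, Spp1, Gfap, Trh and Fos rise in every kainate mouse, Cck and Sst fall in every kainate mouse, and Prox1 and C1ql2 take different courses in mice 21 and 35 than in mice 23 and 26.

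Markers of neighbouring tissue were examined as a check on dissection. Of 5 CA1 genes, 2 were lower and 0 higher (median -1.73), with 1 called without mouse 21, 26 or 35 and a median difference of -0.08 in mouse 21, -1.33 in mouse 23, -2.57 in mouse 26 and -2.47 in mouse 35. The summed level was lower in EZ in every mouse without overlap, at 142, 155, 87.3 and 57.5 CPM in EZ and 318, 334, 380 and 283 CPM in PIZ. Of 5 CA3 genes, 2 were lower (median -0.86), with 1 called without mouse 21, 23 or 35. Their median difference was -1.84, -0.71, 0.04 and -0.67 in the 4 mice, and the summed level was 48.1 to 119 CPM in EZ and 57.6 to 134 CPM in PIZ, higher in EZ in mouse 26 (87.8 against 57.6 CPM). The defining choroid plexus gene Ttr stayed at or below 1.69 CPM in all 8 libraries, and 1 of the 6 tested genes of that list, Kl, was lower (-1.68), a call lost without mouse 21, 26 or 35. In the meninges list Igf2 alone was called higher (0.97), with 162 and 99 CPM in EZ of mice 21 and 35 against 23.3 and 29.6 CPM in mice 23 and 26, a call lost without mouse 21 or 35. In the thalamus list Prkcd alone was higher (1.62), at 108, 30.4, 47.6 and 85.1 CPM in EZ and 10.4 to 31.7 CPM in PIZ, a call lost without mouse 21. The part of unequal dissection in the differences between mice was not tested.

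Synaptic genes were lower in EZ. Of 16 genes of the presynaptic machinery, 15 were lower and 0 higher (median -1.15), and 9 were lower without mouse 21. Snap25, a SNARE protein of vesicle fusion, was at 383, 902, 887 and 441 CPM in EZ and 1999, 1500, 1334 and 1443 CPM in PIZ (-1.35, SE 0.22, adjusted p = 5.56e-05). Syt1, the calcium sensor of release, was at 269, 617, 545 and 224 CPM in EZ and 1484, 944, 992 and 1036 CPM in PIZ (-1.54, SE 0.24). Sv2b, a vesicle glycoprotein gene, had the largest change of the list, at 75.8, 83.9, 62 and 28.7 CPM in EZ and 644, 319, 202 and 243 CPM in PIZ (-2.45, SE 0.38). All 3 were lower in every mouse. Summed over the list, the level was 3296 and 3490 CPM in EZ of mice 21 and 35 and 8125 and 7227 CPM in mice 23 and 26, against 9225 to 13340 CPM in PIZ. Of 12 postsynaptic scaffold genes, 9 were lower and 0 higher (median -0.72), but 2 without mouse 21 or 35. Camk2a, the abundant kinase of excitatory synapses, was at 1160, 3711, 2907 and 884 CPM in EZ and 3073, 3999, 3582 and 3773 CPM in PIZ (-0.97, SE 0.26), which rested on mice 21 and 35. Homer1, a scaffold gene with an activity-induced short form, was not called (0.74).

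Receptor genes followed. Of 17 glutamate receptor genes, 11 were lower and 1 higher (median -0.87), and 4 were called in all without mouse 35 and 5 without mouse 21. Gria1, an AMPA receptor subunit, was at 241, 822, 600 and 171 CPM in EZ and 988, 1136, 905 and 1032 CPM in PIZ (-1.42, SE 0.32, adjusted p = 9.76e-04), a call lost without mouse 21 or 35, as was that of Gria2 (-0.77). Grik1, a kainate receptor subunit of interneurons, was at 1.92, 2.35, 2.92 and 1.16 CPM in EZ and 16.4, 5.99, 10 and 6.86 CPM in PIZ (-2.19, SE 0.41), lower in every mouse. Grm7, a presynaptic metabotropic receptor gene, was the higher member, at 49.7, 96.3, 112 and 113 CPM in EZ and 54.3 to 63.1 CPM in PIZ (0.61, SE 0.17), and its call was lost without mouse 23, 26 or 35. Of 12 GABA-A receptor genes, 7 were lower and 0 higher (median -0.62), and 3 without mouse 21 or 35. Gabra3 was at 8.11, 5.66, 5.93 and 3.98 CPM in EZ and 61.4, 23.7, 31 and 15.7 CPM in PIZ (-2.36, SE 0.40, adjusted p = 6.33e-05).

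Of 18 potassium channel genes, 9 were lower and 0 higher (median -0.70), and 7 without mouse 35. Kcnc2, a delayed rectifier gene of fast-spiking interneurons, was at 8.23, 11.8, 15.5 and 1.62 CPM in EZ and 113, 55, 53.4 and 66.9 CPM in PIZ (-3.12, SE 0.64). The M-current genes Kcnq3 and Kcnq5 fell by 0.87 and 2.80, Kcnq3 being at 88.5, 212, 181 and 87.6 CPM in EZ and 211 to 269 CPM in PIZ (SE 0.18, adjusted p = 4.96e-04), and its call was lost without mouse 35. The sides overlapped for Kcnq3, since the EZ of mouse 23 lay just above the lowest PIZ value. Kcnt1, a sodium-activated channel gene outside the list that passed in the 8 libraries alone, was at 13.2, 6.32, 9.05 and 4.44 CPM in EZ and 24.6 to 47.6 CPM in PIZ (-2.12, SE 0.31). Of 15 sodium, calcium and HCN channel genes, 9 were lower and 1 higher (median -1.08), and 5 in all without mouse 35. Scn8a, the sodium channel of the axon initial segment, was at 108, 285, 266 and 103 CPM in EZ and 380 to 427 CPM in PIZ (-1.25, SE 0.22, adjusted p = 1.04e-04). The pacemaker channel gene Hcn4 was the higher member (1.04), a call lost without mouse 35. Cacna1s, a calcium channel gene of skeletal muscle that lies outside the list, was at 18.1, 8.67, 8.73 and 21.8 CPM in EZ and 0.327 to 0.624 CPM in PIZ (4.83, SE 0.63, adjusted p = 5.84e-06).

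Immediate early genes, which neurons transcribe within minutes of strong activity, were higher in EZ in 10 of 16 cases and lower in 0 (median 1.39). Npas4, an activity-specific transcription factor of neurons, was at 35.2, 84.7, 34.6 and 179 CPM in EZ and 3.08, 4.49, 3.51 and 9.07 CPM in PIZ (3.86, SE 0.52, adjusted p = 7.75e-06). Fos was at 60.3, 52.1, 36.5 and 123 CPM in EZ and 5.52, 4.02, 5.1 and 9.6 CPM in PIZ (3.42, SE 0.46). Mouse 35 had the highest level of both, on both sides, and each injected side lay above each uninjected side. Arc, a regulator of synaptic strength, and Bdnf, the neurotrophin gene, changed by 1.44 and 1.92, with Bdnf at 140, 320, 294 and 365 CPM in EZ and 48.1, 126, 56.6 and 69.3 CPM in PIZ. Egr2 changed by 3.52, Egr1 by 1.36, and Egr3, Jun, Nr4a2 and Nr4a3 were not called. In saline libraries the uninjected side held 4.26 to 8.44 CPM of Npas4 and 2.87 to 3.58 CPM of Fos.

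Wnt signalling, which acts through Frizzled receptors with LRP co-receptors and beta-catenin or through planar polarity and calcium routes, was examined because it was the pathway the study singled out. Of 19 ligand genes, 15 were tested, Wnt1, Wnt3a, Wnt6 and Wnt8a being too low, and 4 were higher and 1 lower (median 0.03). Over all genes tested, 17.5% were higher in EZ and 11.2% lower. Wnt10b was at 1.45, 1.07, 2.85 and 4.23 CPM in EZ and 0.0935 to 0.86 CPM in PIZ (2.45, SE 0.43, adjusted p = 8.21e-05), Wnt10a, Wnt5b and Wnt8b changed by 1.10, 1.07 and 2.15 and Wnt9b fell by 2.69. All of these were low, and without mouse 21 the list had 1 call. The abundant ligands Wnt7a and Wnt7b were not called (0.39 and -0.07). Of 15 receptor genes, 7 were higher and 0 lower (median 0.74), and 5 without mouse 21. Fzd1 was at 22.6, 14.9, 16.6 and 33 CPM in EZ and 7.58 to 8.92 CPM in PIZ (1.30, SE 0.23, adjusted p = 1.01e-04), Fzd5 at 4.55, 2.09, 3.39 and 4.48 CPM in EZ and 0.748 to 1.15 CPM in PIZ (1.93, SE 0.28), and the co-receptor gene Lrp5 at 62, 25.6, 31.3 and 58.9 CPM in EZ and 12.6 to 14.6 CPM in PIZ (1.61, SE 0.19). These 3 were without overlap between sides, while Fzd3 and Lrp6 were not called (0.28 and 0.30).

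Of 13 tested antagonist genes, 4 were higher and 2 lower (median 0.12), Dkk1 and Sost being too low. Sfrp1, a secreted decoy for Wnt, was at 24.5, 6.99, 12.3 and 33.2 CPM in EZ and 3.31 to 4.89 CPM in PIZ (2.09, SE 0.43, adjusted p = 3.67e-04). Dkk3, the antagonist family member of highest level, was at 185, 202, 164 and 145 CPM in EZ and 240 to 291 CPM in PIZ (-0.63, SE 0.17), a call lost without mouse 21 or 35, and Wif1 fell by 2.05. Of 15 canonical transducers, 2 were higher and 2 lower (median -0.17), beside 17.5% higher and 11.2% lower over all genes tested. In this list 1 was called without mouse 21, 2 without mouse 35, 8 without mouse 23 and 7 without mouse 26. The beta-catenin gene, Ctnnb1, was above PIZ in each mouse, at 600, 696, 626 and 660 CPM in EZ and 486 to 571 CPM in PIZ, but below the fold threshold (0.28, SE 0.08, adjusted p = 0.00428). Axin2, a common readout of canonical signalling, was at 21.6, 20.2, 22.1 and 20.4 CPM in EZ and 24.3, 19.4, 26.5 and 28.8 CPM in PIZ and was not called (-0.22). Tcf7l1 and Tcf7l2 were higher (1.23 and 0.81) and Apc and Btrc lower (-0.63 and -0.60), and of these 4 calls Tcf7l1 held whichever mouse was left out. Of 16 non-canonical transducers, 3 were higher and 8 lower (median -0.54), and 6 in all without mouse 21. Rhoa, a cytoskeletal GTPase, was at 249, 150, 159 and 236 CPM in EZ and 96.8 to 117 CPM in PIZ (0.86, SE 0.13).

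None of 11 respiratory chain genes was called (median -0.02), Cox4i1 being at 273, 303, 258 and 252 CPM in EZ and 279, 312, 259 and 242 CPM in PIZ (-0.01, SE 0.06). Of 11 cholesterol synthesis genes, 1 was higher (median -0.04), and 0 without mouse 35.

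Saline mice were the background for side and needle, and the difference between the side differences was tested in the same fit. It was a DEG for 2356 genes (11.0% of those tested), 1486 with a higher and 870 with a lower EZ over PIZ difference after kainate. Of the 6153 genes called between sides after kainate, 2301 (37.4%) were also called in this difference. The smallest p in each direction belonged to Cbfb (1.33, SE 0.14, adjusted p = 5.98e-05) and Mfsd2a (2.01, SE 0.23), and to Cck (-1.89, SE 0.24, adjusted p = 3.41e-04) and Vwc2l (-4.67, SE 0.61). In the 4 saline mice the differences of Cck were -0.18, 0.07, 0.41 and 0.18 and those of Cbfb 0.02, 0.04, -0.23 and 0.08. Those of Mfsd2a were -0.46, -0.27, -0.27 and 0.10 and those of Vwc2l 0.12, 0.53, 0.08 and 0.69, so that for both the fitted saline difference (-0.23 and 0.42, neither called) lay opposite to that after kainate and added to the contrast. By list, 10 of 11 homeostatic and 10 of 15 disease-associated microglial genes, 8 of 11 complement genes, 8 of 14 interferon genes, 8 of 12 reactive astrocyte genes and 8 of 16 presynaptic genes were called in it. Smaller parts were called of other lists, among them 3 of 14 proliferation genes and 2 of 17 glutamate receptor genes. Of the postsynaptic scaffold list 1 of 12 genes was called, and of the matrix and fibroblast list 1 of 14. The CA1, CA3, oligodendrocyte, mature granule cell, Wnt ligand and canonical Wnt transducer lists had no call in the difference from saline. Nor had the choroid plexus, meninges, thalamus, blood, cholesterol synthesis and respiratory chain lists. All of these lists are short, and the share over all genes was 11.0%. On the injected side of saline mice, Cst7 and C3 stood above PIZ in each mouse, by 3.47 and 2.99 in the fit, and Tgm1 by 1.71, and for these 3 the difference from saline was not called (adjusted p = 0.235, 0.153 and 0.0438). The count fell to 403 without kainate mouse 21 and 470 without mouse 35, rose to 4289 without mouse 23 and 3681 without mouse 26, and fell to 751, 931, 591 and 912 without saline mice 89, 33, 20 and 34.

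Against day 3, which is another set of 4 kainate mice, the side difference was a DEG for 101 genes (0.472%), 91 of them more positive at day 7 and 10 more negative. Tgm1 headed them, with differences of 1.99 to 2.42 in the 4 mice of day 3 and 6.00 to 7.67 at day 7 (4.65, SE 0.45, adjusted p = 1.73e-05). Aldh1l1 differed by -0.18 to 0.00 at day 3 and 1.01 to 1.85 at day 7 (1.57, SE 0.18, adjusted p = 1.54e-04). P2ry12 was at or below PIZ in each mouse of day 3, by -1.04 to -0.01, and above it in each mouse of day 7, by 0.64 to 2.15 (2.05, SE 0.28, adjusted p = 5.17e-04). Gfap differed by 0.24 in the fit at day 3 and 2.41 at day 7 (2.17, SE 0.33, adjusted p = 0.00137). In the other direction stood Plekha6 (-1.02, SE 0.13) and the unclassified transcript 9430081H08Rik (-3.10, SE 0.46), which was not called at day 7 itself. Of the lists, 4 homeostatic microglial genes, 3 homeostatic astrocyte genes and 2 each of the complement, reactive astrocyte and precursor lists were among the 101. The count was 41 without mouse 21, 300 without mouse 23 and 283 without mouse 26, and 35, 36 or 54 without mouse 42, 30 or 38 of day 3.

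**Figure D5:**
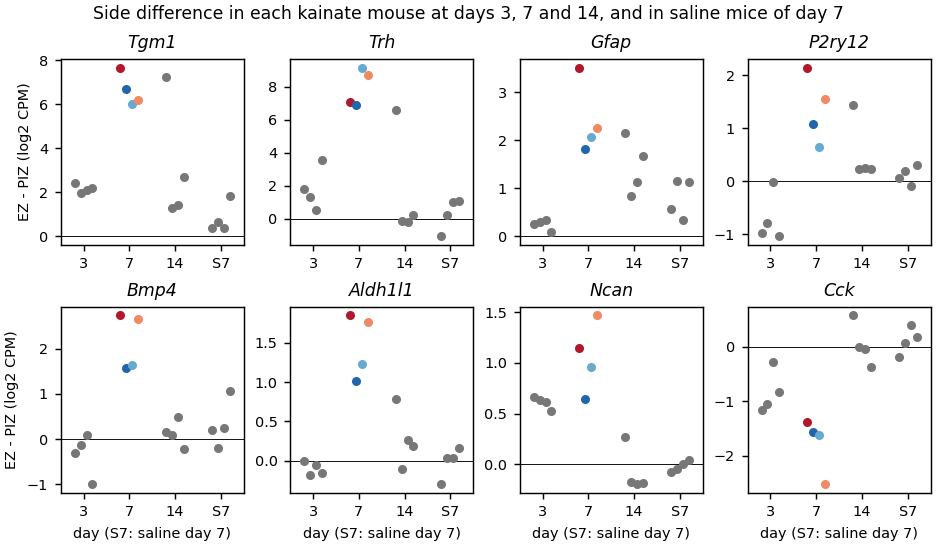
EZ minus PIZ difference (log2 CPM, y axis) of 8 genes in each mouse (points) of the kainate groups of days 3, 7 and 14 and of the saline group of day 7 (S7, x axis); day 7 mice are coloured. Tgm1 lies at 6.00 to 7.67 at day 7 and 1.99 to 2.42 at day 3, P2ry12 changes sign between days 3 and 7, and mouse 27 is the highest day 14 point for Tgm1 (7.25) and Trh (6.56).

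Against day 14, the side difference was a DEG for 10 genes (0.0468%). More positive at day 7 were Ncan, Rnf144a, Cbfb, Fgfr3, Aldh1l1, Bmp4, Pmepa1, Mfsd2a and Slc38a3, and more negative was Cck. Ncan, the chondroitin sulfate proteoglycan neurocan of perineuronal matrix, was at 463, 421, 485 and 551 CPM in EZ and 209, 270, 249 and 199 CPM in PIZ at day 7, and its differences were 0.64 to 1.47 at day 7 and -0.20 to 0.27 at day 14 (1.13, SE 0.14, adjusted p = 0.00131). Rnf144a, a ubiquitin ligase gene, followed (0.75, SE 0.10), and Cck differed by -1.82 (SE 0.24). For Cck, the day 14 differences were 0.58, 0.00, -0.03 and -0.36. Day 14 mouse 27 stood apart from the 3 others of its group, with a median absolute side difference of 0.465 against 0.141 to 0.199. Without it 1690 genes were called, without day 14 mouse 36 none was (0), and without day 14 mice 14 or 40 the count was 4 or 3. Among the mice of day 7, it was 613 without mouse 23, 26 without mouse 26, 4 without mouse 21 and 2 without mouse 35.

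Of the genes called from the 8 libraries alone, 5 more are described here, chosen after their values were seen. Sulf1, which removes sulfate from heparan sulfate, was at 61.9, 42.8, 45.3 and 63.1 CPM in EZ and 8.83, 6.92, 6.98 and 8.69 CPM in PIZ (2.75, SE 0.26, adjusted p = 4.40e-07). Acan, the core protein of the proteoglycan aggrecan, was at 96.2, 66.1, 137 and 247 CPM in EZ and 5.12, 6.59, 15 and 11.3 CPM in PIZ (3.79, SE 0.70). Has2, which makes hyaluronan, was at 5.53, 1.73, 3.82 and 5.64 CPM in EZ and 0.0935 to 0.48 CPM in PIZ (3.61, SE 0.41). All 3 were raised without overlap, Sulf1 by nearly the same amount in each mouse (2.80, 2.61, 2.68 and 2.85). The growth factor gene Gdnf was at 7.88, 3.16, 7.64 and 21.5 CPM in EZ and 0.0418 to 0.226 CPM in PIZ (6.05, SE 0.68), and Ccn5, a matricellular protein gene, at 8.03, 2.24, 5.38 and 7.22 CPM in EZ with at most 3 counts in any PIZ library.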

How the data were processed

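Bulk RNA-seq libraries of mouse dentate gyrus were compared. Per the labels and the study's methods, the authors trimmed reads with fastp 0.20.1, aligned them with HISAT2 2.2.1 to GRCm39 and counted them per gene with featureCounts of Subread 1.6.4 in stranded mode on Gencode annotation, assigning multi-mapping reads by primary alignment and largest overlap, so near-identical paralogs and pseudogenes may share reads. The deposited table holds raw counts, not normalized. Gene names and positions came from the reference annotation (GRCm39) for 54749 of 55357 identifiers (98.9%).

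From these counts, edgeR 4.0.16 in R 4.3.3 was run on all 48 libraries with filterByExpr, TMM scaling, a term for each mouse and a side effect for each injection and day (18 residual degrees of freedom), the quasi-likelihood test, and Benjamini-Hochberg adjustment over 21390 genes (99.9% of counts). The SE is the log2 fold change divided by the square root of F, and CPM on the log2 scale carries a prior count of 2. Differences between side effects were contrasts of the same fit. The procedure was tested on simulated data.

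Pairing came from the same animal giving both sides; the correlations of the sides' deviations from their group means were 0.0166, 0.25, 0.00759 and 0.104 in mice 21, 23, 26 and 35. Nothing in the labels ties the 4 mice to litters or cohorts. Named genes were the 8 of smallest p and the 5 of largest change in each direction (protein-coding, the latter at 1 CPM or more in EZ or PIZ), the 2 of highest level in each of 41 lists, the 2 of smallest p in each direction of each difference, genes behind counts of 5 or fewer, and further list members described with their list. Genes outside these rules (Acan, Cacna1s, Ccn5, Gdnf, Has2, Kcnt1 and Sulf1) were named after their values were seen. The members and lists were chosen with earlier results of these data known, so lists are described by counts and medians without a test. Alternatives were other scalings and filters, DESeq2 1.42.0, limma-voom (limma 3.58.1), glmTreat, fits of fewer libraries, no block and leaving out each mouse. Single values of some list members, although counted with their lists, are not reported here.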

Additional observations from a re-analysis of the deposited data

Results flagged for a closer look

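Of 404 groups of 4 libraries (202 named genes on each side), 19 held a library far from the other 3. For independent groups, chance alone gives about 1 in 20. The named genes share the same 8 libraries and were chosen partly by their values, so the count cannot say whether such groups exceed chance. Values here are log2 CPM. The uninjected side of mouse 21 accounted for 8 of them: Lct was at 3.26 against 6.61 to 6.69 in the other PIZ libraries, Prox1 at 6.67 against 7.71 to 7.88, Mki67 at 1.29 against 3.05 to 3.09, Top2a at 1.37 against 2.90 to 3.16, Vim at 5.35 against 6.32 to 6.50, Tmem119 at 4.31 against 4.94 to 5.05, and Apc was higher, at 8.80 against 8.21 to 8.27. Kcnq5 was also higher there, at 7.34 against 5.05 to 5.23. The cause was not tested.

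The injected side of mouse 21 was apart for Glul (10.25 against 10.07 to 10.09), Gad2 (5.80 against 6.84 to 6.91) and Trpc6 (5.12 against 6.24 to 6.29). That of mouse 35 was apart for Kcnq5 (1.30 against 3.35 to 3.48) and Adcyap1 (5.25 against 3.26 to 3.39), and that of mouse 26 for Wnt9b (-1.06 against -2.56 to -2.37). The uninjected side of mouse 23 was apart for Slc2a1 (6.42 against 5.94 to 6.01), Trh (-0.97 against -1.95 to -1.82), Slc6a13 (0.58 against 2.76 to 2.87), Igf2 (4.06 against 5.11 to 5.26) and Drd2 (1.73 against 1.23 to 1.26). Slc6a13 and Igf2 are both meningeal genes.

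The side difference itself differed between groups of mice. It differed from that of saline mice for 2356 genes, among them Cbfb by 1.33, Mfsd2a by 2.01, Cck by -1.89 and Vwc2l by -4.67 on the log2 scale. It differed from day 3 for 101 genes, among them Tgm1 by 4.65, Aldh1l1 by 1.57, Plekha6 by -1.02 and 9430081H08Rik by -3.10. It differed from day 14 for 10 genes, among them Ncan by 1.13, Rnf144a by 0.75 and Cck by -1.82.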

How the results depend on the processing

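Of 202 named genes, 148 were called and none of these changed direction in those of the 15 alternatives that tested it. The alternatives left out libraries or changed the scaling, the filter, the tool or the threshold, and 12 of them tested all 202, while the 8 libraries alone tested 197 (Chrm5, Dio3, Mcoln3 and Mmp27 were among those left out), the 16 libraries of day 7 tested 199, and a filter of at least 10 counts in all 8 libraries tested 169. Scaling by RLE size factors changed none of the 202 calls. The 6153 DEG became 3169 with limma-voom (2271 higher, 898 lower), 2511 with glmTreat against a 1.5-fold change (1932 higher, 579 lower) and 26 in the 8 libraries alone (23 higher, 3 lower), which leave 3 residual degrees of freedom. In the 16 libraries of day 7, the lower genes numbered 1565 and the difference from saline 329. The difference from saline was 37 with glmTreat and 4847 at an adjusted p under 0.05. The difference from day 3 was 479 with DESeq2, 180 with limma-voom, 20 with glmTreat and 638 at an adjusted p under 0.05. The difference from day 14 was 26 without a filter, 370 with DESeq2, 283 with limma-voom, 0 with glmTreat and 423 at an adjusted p under 0.05. In saline mice, DESeq2 called 2 genes (Clec7a and C3) and limma-voom 1 (C4b). Without the replicate block, that is, without the pairing by animal, the counts were 5970 between sides, 37 for the difference from day 3 and 1 for that from day 14, and 13 named genes lost their call.

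Leaving out 1 mouse gave 3658 to 7216 DEG between sides, the lowest without mouse 21 and the highest without mouse 23, and 1139 to 2969 lower DEG. The difference from saline ranged from 403 to 4289, that from day 3 from 35 (without day 3 mouse 42) to 300 (without mouse 23), and that from day 14 from 0 (without day 14 mouse 36) to 1690 (without day 14 mouse 27). Without mouse 21, 31 named genes lost their call, and without mouse 35, 30. The cause of these changes was not tested. Mice 21 and 35 shared both the larger side differences and a sex-linked pattern. Leaving out any kainate mouse of day 7, not these alone, leaves an unequal number of each pattern. For low genes (Mcoln3, Mmp27, Cd5l, Ccn5 and Tnf), the counts on the uninjected side limit the fold change, and for Dio3, Vwc2l and Chrm5 those on the injected side do.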
